A study of Mus musculus with 24 samples.

Results

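Pou5f1 (the gene of Oct4), Sox2, Nanog and Sall4 encode the transcription factors at the core of the pluripotency network of mouse embryonic stem cells (ESCs), and they were followed here through the loss of Tet proteins and the withdrawal of LIF. They were chosen by symbol and make up 4 of the 22926 gene symbols in the count tables. All 4 were present in both tables, and all 4 passed the filter on low counts in every fit. Polyadenylated RNA had been sequenced from 24 libraries, 12 of undifferentiated ESCs (D0) and 12 from cultures grown without leukemia inhibitory factor (LIF) for 6 days (D6). Each library came from 1 clone. At each day WT and Tet1-/- were represented by 3 clones each, and Tet2-/-, DKO and TKO by 2 each. The genotype of DKO is Tet1-/-:Tet2-/-, and in TKO the third Tet gene is edited too (Tet1-/-:Tet2-/-:Tet3-/-).

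All clones, WT included, descend from 1 feeder-free 129/SVj ESC line that carries an IRES:eGFP cassette at Pou5f1, and were kept on gelatin in serum with LIF until D0. The knockouts are Cas9 indels, so each knockout clone is also a separate isolate that had been transfected and selected. The study reports loss of the protein by Western blot, and its blot shows Tet1 and Tet2 but not Tet3. Clones are named as in the labels, WT_O4.1, WT_O4.2 and WT3_O4.13 for WT, Tet2_KO_3.10 and Tet2_KO_3.11 for Tet2-/-, DKO_5.11 and DKO_5.12 for DKO, and TKO_8.4 and TKO_8.12 for TKO. The D6 label of the second DKO clone reads D6_DKO_512, without the point, and was taken to be DKO_5.12. Of the Tet1-/- clones, Tet1_KO_2.1 and Tet1_KO_2.4 were sequenced at both days, Tet1_KO_2.3 at D0 alone and Tet1_KO_2.2 at D6 alone, which leaves 11 clones with both days. Values of a genotype are given in this order of clones, with Tet1_KO_2.3 or Tet1_KO_2.2 between the other 2 Tet1-/- clones. The comparison of genotypes asks whether cells without Tet proteins hold on to the core factors when the signal that keeps them pluripotent is taken away.

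Oct4, a POU factor, and Sox2, an HMG box factor, bind DNA side by side on composite motifs and switch on many genes of the pluripotent state, their own included. Nanog, a homeodomain protein, stabilises that state and varies from cell to cell in serum and LIF. Sall4, a zinc finger protein, associates with Oct4 and Nanog and with the NuRD repressor complex, and remains active in several early lineages after pluripotency has been left.

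In mm9, the build of the deposited counts, Pou5f1 lies on chromosome 17 at 35642982 to 35647721 on the plus strand, and Nanog on chromosome 6 at 122657507 to 122664651 on the plus strand (GENCODE vM1). Sox2 lies on chromosome 3 at 34548927 to 34551383 on the plus strand, within the long noncoding gene Sox2ot, and Sall4 on chromosome 2 at 168573832 to 168593443 on the minus strand. The kit kept no strand, and Sox2ot stood at no more than 1.60 CPM (a count relative to its library's size) in any library. Nanog and Pou5f1 have pseudogene copies elsewhere in the genome, and reads that cannot be placed between the copies make their counts uncertain. The guide that the study lists for Oct4 is shown because all clones carry eGFP at this locus. It matches mm9 once on chromosome 17, at 35647634 to 35647653 on the plus strand, in the last exon of Pou5f1 and downstream of the stop codon at 35647494 to 35647496, with agg next to it as the PAM.
Oct4 guide: gctcagtgatgctgttgatc

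The promoters of 3 members, 250 bases upstream of the annotated start (RefSeq, GRCm38.p6, plus strand), are shown because Pou5f1, Sox2 and Nanog all fell in WT by D6 and Oct4 and Sox2 are known to act on their own genes. For each gene the first entry of the table is printed. Both strands were searched for an octamer core (ATGCAAA), a Sox core (CATTGT) and the composite of both (CATTGTNATGCAAA), which holds the other 2 within it. Capitals mark the composite in Nanog, read on the opposite strand at bases -75 to -62 from the start, and the octamer core in Sox2, which begins at base -99. Sall4 had no entry in the promoter table.
Nanog, chr6:122707239-122707488: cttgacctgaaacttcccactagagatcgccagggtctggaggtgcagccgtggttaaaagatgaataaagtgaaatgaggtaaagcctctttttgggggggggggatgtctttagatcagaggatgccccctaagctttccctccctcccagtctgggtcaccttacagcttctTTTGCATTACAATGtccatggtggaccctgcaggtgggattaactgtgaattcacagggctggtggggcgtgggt
Sox2, chr3:34649745-34649994: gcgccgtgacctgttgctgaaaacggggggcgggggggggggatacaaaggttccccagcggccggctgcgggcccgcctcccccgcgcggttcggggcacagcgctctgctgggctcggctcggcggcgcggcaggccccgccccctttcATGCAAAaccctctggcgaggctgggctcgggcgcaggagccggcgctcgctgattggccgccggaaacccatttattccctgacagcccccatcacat
Pou5f1, chr17:35505782-35506031: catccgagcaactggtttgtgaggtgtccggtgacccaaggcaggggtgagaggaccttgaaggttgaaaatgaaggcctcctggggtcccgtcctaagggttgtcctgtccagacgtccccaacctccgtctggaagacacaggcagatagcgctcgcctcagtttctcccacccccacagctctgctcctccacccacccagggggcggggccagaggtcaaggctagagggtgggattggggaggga

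Of 32851 promoters of this length, 2 (0.00609%) held the composite, and both are entries of Nanog, which was the only 1 of 27025 genes. The octamer core was in 4.12% of the promoters and the Sox core in 10.7%. The Pou5f1 window printed held neither, and it had 1 GC box (GGGCGG, in 32.7% of promoters). Pou5f1 has a second entry, at 35508557 to 35508806 on chromosome 17, which held 1 Sox core, 0 octamer cores and 0 GC boxes. These are matches of letters within a short window, and enhancers farther away were not searched.

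Library totals ran from 21729346 to 37290208 counts at D0 and from 18400463 to 34219640 at D6, so counting error was small beside the spread between clones for genes at these levels. Levels in CPM are on 1 TMM scale over all libraries. Nothing in the labels says that the clones were cultured more than once, so the p-values rest on the spread between these clones. That spread is pooled over the groups of a fit. The main fits of D6 against D0 hold no term for the clone and treat its libraries of both days as separate. The indels did not remove the transcripts of the targeted genes: at D0, Tet1 stood at 41.7 to 568 CPM in the 7 clones that carry its deletion and at 220 to 457 CPM in the other 5, and Tet2 at 8.16 to 55.7 CPM in 6 carriers and 84.0 to 113 CPM in the other 6. Tet3 stood at 2.84 and 4.43 CPM in TKO and at 5.05 to 7.94 CPM in the rest. A gene was called where edgeR's quasi-likelihood test gave a Benjamini-Hochberg adjusted p under 0.05 and the change exceeded 2-fold, and the words rose and fell are kept for called genes.

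In undifferentiated cells no core factor was called between a knockout and WT. Pou5f1 measured 856, 693 and 849 CPM in the WT clones and 856, 874 and 778 CPM in the Tet1-/- clones. Its level was 778 and 797 CPM for Tet2-/-, 738 and 719 for DKO, and 749 and 596 for TKO. Sox2 measured 701, 710 and 668 CPM in the WT clones and 736, 759 and 643 CPM in the Tet1-/- clones. The Tet2-/- clones had 836 and 737 CPM, the DKO clones 699 and 668, and the TKO clones 898 and 589. TKO_8.12 was the lowest of the 12 libraries for both genes and TKO_8.4 the highest for Sox2, followed by Tet2_KO_3.10, also above all WT clones.

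Nanog at D0 measured 693, 784 and 679 CPM in the WT clones, against 676, 756 and 698 for Tet1-/- and 627 and 682 for Tet2-/-. The DKO clones had 699 and 648 CPM, and the TKO clones 541 and 545. The latter were the lowest of the 12 libraries. Sall4 measured 315, 261 and 316 CPM in the WT clones, against 338, 379 and 353 for Tet1-/- and 339 and 331 for Tet2-/-. The DKO clones had 378 and 359 CPM, and the TKO clones 279 and 317. Against WT, Sall4 had an edgeR adjusted p of 0.298 for Tet1-/-, 0.338 for Tet2-/-, 0.214 for DKO and 0.998 for TKO.

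None of the 4 members was called in any knockout at D0 by edgeR's quasi-likelihood test, and none by DESeq2. Over all 14456 genes tested, 0.00692% were called for Tet1-/-, 3.19% for Tet2-/-, 0.0346% for DKO and 3.15% for TKO. Nanog in TKO came nearest, with a log2 fold change of -0.41 ± 0.09 (SE) and an adjusted p of 0.0209 in edgeR's quasi-likelihood test, short of 2-fold. Pou5f1 in TKO differed by -0.25 ± 0.12 (edgeR adjusted p = 0.195), Sall4 in DKO by 0.30 ± 0.10 (0.214), Nanog in Tet2-/- by -0.16 ± 0.09 (0.28) and Sall4 in Tet1-/- by 0.24 ± 0.09 (0.298). At an unadjusted p under 0.05 there was 1 member for Tet1-/- and 1 for DKO, in both Sall4, 1 for TKO (Nanog), and 0 for Tet2-/-. The share of all genes under that p was 12.6% for Tet1-/-, 14.4% for DKO, 26.4% for TKO and 29.2% for Tet2-/-. With the knockouts averaged against WT, where 0.526% of genes were called, 0 members were called and the adjusted p was 0.204 for Nanog and 0.281 for Sall4.

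After 6 days without LIF, Pou5f1 and Sox2 fell in WT, Tet1-/-, DKO and TKO, Nanog fell in WT and Tet1-/-, and Sall4 was called in no genotype. In Tet2-/- none of the 4 was called. Since the RNA came from whole cultures, fewer pluripotent cells and less RNA per cell cannot be told apart. The D0 and D6 libraries were deposited as separate sets, and any difference in their making cannot be told apart from the day either.

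**Figure D1:**
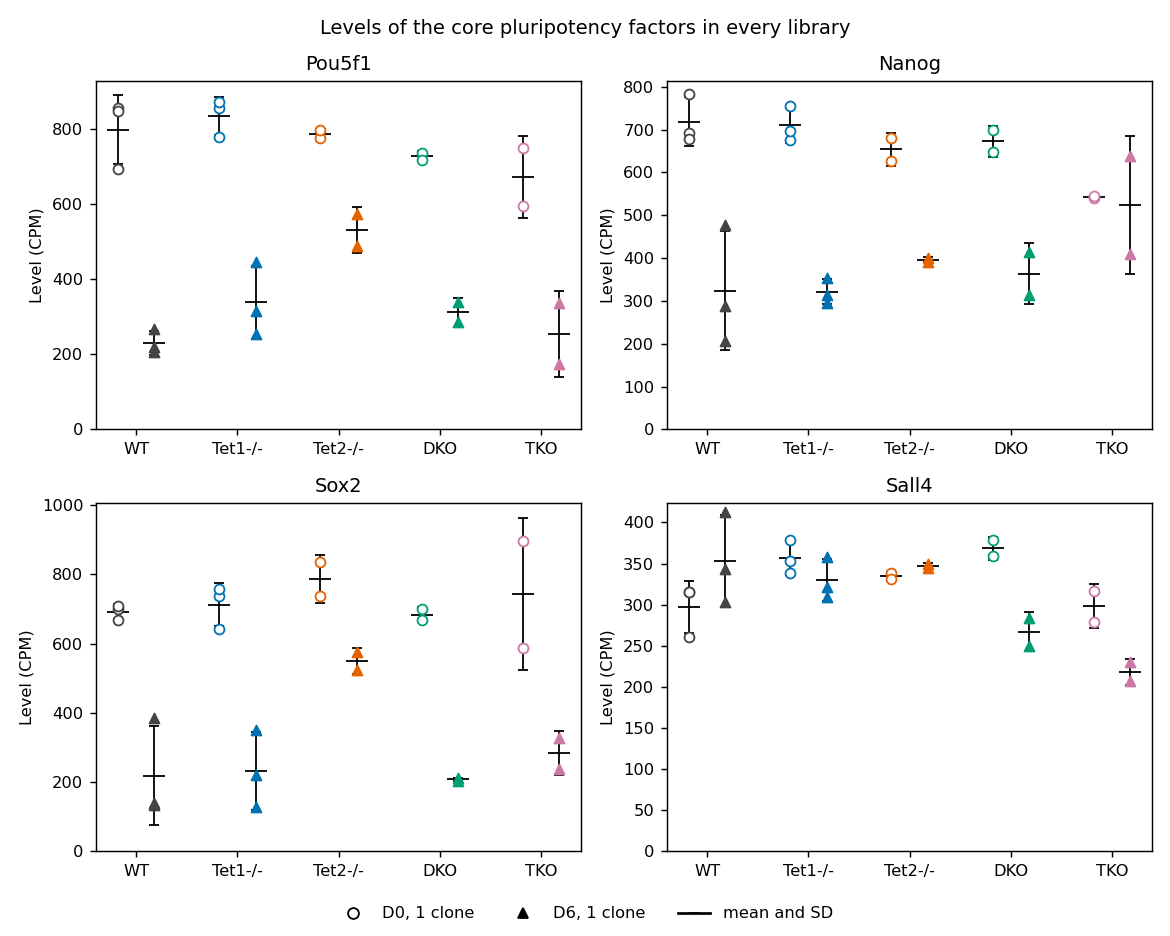
Levels of Pou5f1, Nanog, Sox2 and Sall4 (y axis, CPM, from 0) in the 5 genotypes (x axis), with open circles for D0 clones, filled triangles for D6 clones, and black bars for the mean and SD of each group. At D6 both Tet2-/- clones stand above every other clone for Pou5f1 and Sox2, and both TKO clones stand below every other clone for Sall4.

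Pou5f1 at D6 measured 207, 268 and 219 CPM in the WT clones and 489 and 575 CPM in the Tet2-/- clones. The Tet1-/- clones had 315, 256 and 446 CPM, the DKO clones 340 and 285, and the TKO clones 336 and 173. Tet1_KO_2.2 lay within the WT range and TKO_8.12 below it, and the others lay between WT and Tet2-/-. In no genotype did D6 overlap with D0. The log2 fold change from D0 to D6 was -1.79 ± 0.21 (SE) for WT, -1.30 ± 0.20 for Tet1-/-, -1.22 ± 0.25 for DKO and -1.40 ± 0.25 for TKO, with edgeR adjusted p of 5.51e-07, 2.09e-05, 0.000438 and 0.00016. In Tet2-/- it was -0.57 ± 0.24 (edgeR adjusted p = 0.0732) and was not called. Without TKO_8.12 at D6, the lowest of all, the TKO change was -0.98 and under 2-fold.

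Sox2 at D6 measured 134, 385 and 139 CPM in the WT clones and 524 and 576 CPM in the Tet2-/- clones. It measured 222, 127 and 351 CPM for Tet1-/-, 212 and 204 for DKO, and 328 and 239 for TKO. WT_O4.2 and Tet1_KO_2.4 stood far above the other clones of their genotypes. The log2 fold change was -1.66 ± 0.34 (SE) for WT, -1.61 ± 0.34 for Tet1-/-, -1.72 ± 0.41 for DKO and -1.39 ± 0.41 for TKO, with edgeR adjusted p of 0.000288, 0.000415, 0.00185 and 0.00872. In Tet2-/- it was -0.52 ± 0.40 (edgeR adjusted p = 0.325). Without WT_O4.2 at D6 the WT change was -2.35. The TKO call was lost without TKO_8.4 at D0 (edgeR adjusted p = 0.0782) or TKO_8.12 at D6 (0.0875), where the lone clone left is assumed to vary like the other groups.

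Nanog at D6 measured 207, 477 and 288 CPM in the WT clones, 314, 296 and 354 for Tet1-/-, and 401 and 392 for Tet2-/-. The DKO clones had 314 and 414 CPM and the TKO clones 410 and 638. TKO was the only genotype in which D6 overlapped with D0, and TKO_8.12 was higher at D6 than at D0. The log2 fold change was -1.15 ± 0.21 (SE) in WT and -1.14 ± 0.21 in Tet1-/-, with edgeR adjusted p of 9.15e-05 and 0.000109. It was -0.89 ± 0.25 in DKO (0.00634) and -0.72 ± 0.25 in Tet2-/- (0.0294), both short of 2-fold, and -0.05 ± 0.25 in TKO (0.879). The WT value moved to -0.90, under 2-fold, without WT_O4.1 at D6, and the DKO value to -1.10, called, without DKO_5.12 at D6.

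Sall4 at D6 measured 413, 303 and 343 CPM in the WT clones, 309, 358 and 322 for Tet1-/-, and 345 and 350 for Tet2-/-. The DKO clones had 284 and 250 CPM and the TKO clones 230 and 207. D6 lay below D0 without overlap in DKO and TKO, and slightly above it in Tet2-/-. None of these changes reached 2-fold: the log2 fold change was 0.25 ± 0.11 (SE) for WT, -0.11 ± 0.11 for Tet1-/-, 0.05 ± 0.13 for Tet2-/-, -0.46 ± 0.13 for DKO and -0.45 ± 0.13 for TKO. The edgeR adjusted p was 0.0485, 0.36, 0.776, 0.00592 and 0.00861 in the same order.

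Members that fell therefore numbered 3 in each of WT and Tet1-/-, 2 in each of DKO and TKO, and 0 in Tet2-/-, and DESeq2 gave the same counts. Of all 15639 genes tested, 13.3% fell in WT, 11.2% in the Tet1-/- clones, 6.44% in the Tet2-/- clones, 10.6% in the DKO clones and 8.63% in the TKO clones. In Tet2-/-, 2 members had an unadjusted p under 0.05, Pou5f1 and Nanog, as did 48.3% of all genes. Scaling by library totals in place of TMM shifted the median change of all genes upward, to 0.16 in WT and 0.21 in Tet1-/- on the log2 scale, and in Tet1-/- it brought Nanog to -0.94 and under 2-fold.

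Within clones, the level at D6 was set against the level of the same clone at D0. WT clones kept 24.2%, 38.6% and 25.8% of their Pou5f1, a mean of 29.6% ± 7.90 (SD, n = 3), and Tet2-/- clones kept 62.9% and 72.2%. The other knockout clones kept between 29.1% (TKO_8.12) and 57.3% (Tet1_KO_2.4). The Tet2-/- clones were thus the highest of the 11 clones, and TKO_8.12 and Tet1_KO_2.1 (36.8%) lay within the WT range, with DKO_5.12 (39.7%) just above it.

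For Sox2 the WT clones kept 19.1%, 54.2% and 20.8%, and the Tet2-/- clones 62.6% and 78.1%, again the highest of the 11. For Nanog the WT clones kept 29.8%, 60.9% and 42.4%, the Tet2-/- clones 64.0% and 57.5%, and the TKO clones 75.7% and 117%. WT_O4.2 accounted for the upper end of WT in all 3 of these genes. For Sall4 the order ran differently. The WT clones kept 109% to 131%, the Tet2-/- clones 102% and 106%, and the Tet1-/- clones 91.4% and 91.2%. The DKO clones kept 75.2% and 69.8%, and the TKO clones 82.4% and 65.5%. In the test of the response, given below, Sall4 was called in no genotype.

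**Figure D2:**
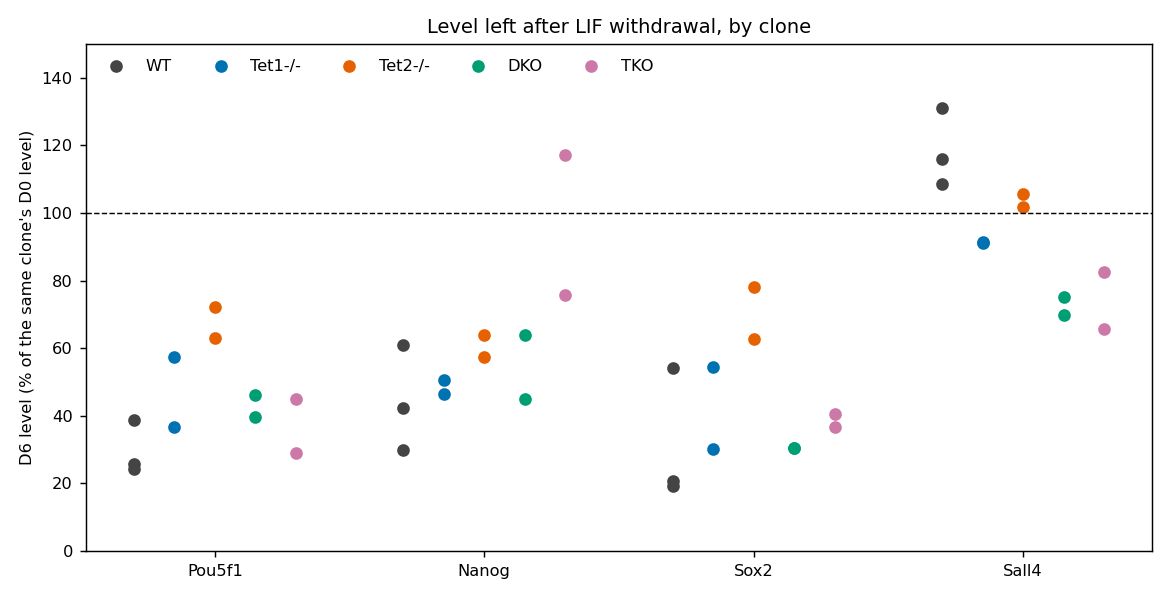
Level at D6 as a percentage of the level of the same clone at D0 (y axis, from 0, dashed line at 100%) for the 4 genes (x axis), with 1 point per clone and colours for the genotypes. Tet2-/- clones kept 62.9% and 72.2% of Pou5f1, TKO clones kept 75.7% and 117% of Nanog, and all WT clones lie above 100% for Sall4.

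Set against WT at D6, Pou5f1 rose in Tet2-/- by a log2 fold change of 1.18 ± 0.27 (SE), 2.27-fold, with an edgeR adjusted p of 0.0128. It was the only 1 of the 4 members called, where 14.3% of the 15435 genes tested were called and 4.81% were called higher. Sox2 in Tet2-/- had a larger change and a larger error, 1.30 ± 0.46 with an edgeR adjusted p of 0.0548, and was not called. Nanog differed by 0.27 ± 0.29 (0.501) and Sall4 by -0.04 ± 0.13 (0.834).

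Both results rested on few clones. Without Tet2_KO_3.10 the Pou5f1 change was 1.29 (edgeR adjusted p = 0.063) and without Tet2_KO_3.11 it was 1.06 (0.104), with 1 clone left that is assumed to vary like the other groups. Without WT_O4.2, whose Sox2 level of 385 CPM stood against 134 and 139 CPM, Sox2 was called at 2.00 (0.00453). Over all fits with 1 library left out, the Sox2 change ran from 1.07 to 2.00. Sox2 was also called in a fit over all 24 libraries (1.33, adjusted p = 0.00863).

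The remaining knockouts share the WT libraries with that comparison, and their values stand beside it. Pou5f1 differed from WT by 0.54 ± 0.25 (SE) for Tet1-/-, 0.43 ± 0.28 for DKO and 0.15 ± 0.28 for TKO, with edgeR adjusted p of 0.398, 0.486 and 0.768. Nanog in TKO differed by 0.70 ± 0.29 (0.18), and by 1.10 (0.0202), called, without WT_O4.2. Leaving out 1 library at a time, the Nanog value ran from 0.36 to 1.10. Sall4 differed by -0.10 ± 0.12 for Tet1-/- (0.724), -0.40 ± 0.13 for DKO (0.245) and -0.68 ± 0.13 for TKO (0.0641). Without TKO_8.4 the Pou5f1 value of TKO turned to -0.42.

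No member was called in Tet1-/-, DKO or TKO by edgeR's quasi-likelihood test or by DESeq2, and by edgeR 0% of all genes were called in these genotypes. Members with an unadjusted p under 0.05 numbered 0 for Tet1-/-, 1 for DKO (Sall4) and 2 for TKO (Nanog and Sall4), beside 12.6%, 14.6% and 23.5% of all genes. Sall4 ranked 89 by unadjusted p among the genes of the TKO comparison, and its adjusted p is tied with that of the genes ranked before it. With the 4 knockouts averaged, where 2.41% of genes were called, Pou5f1 differed from WT by 0.58 ± 0.21 (edgeR adjusted p = 0.106) and Sall4 by -0.31 ± 0.09 (0.0733), and 0 members were called by edgeR's quasi-likelihood test.

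**Figure D3:**
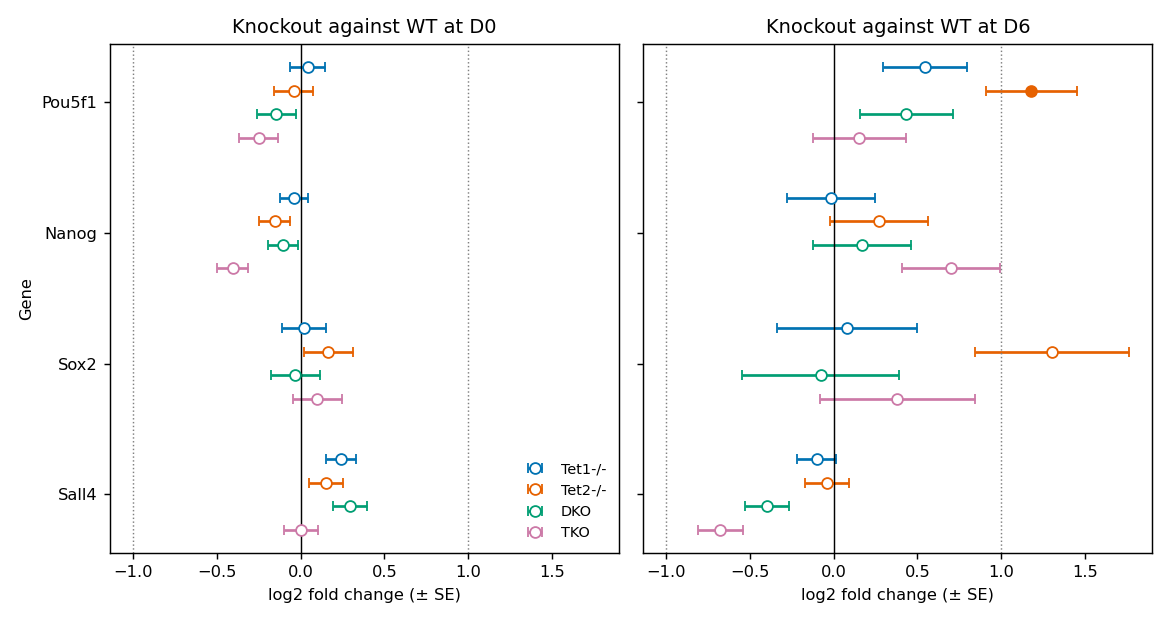
Log2 fold change of each knockout against WT (x axis, bars are ± SE) for the 4 genes (y axis) at D0 on the left and D6 on the right, with filled points for genes called and dotted lines at 2-fold. The only filled point is Pou5f1 in Tet2-/- at D6, at 1.18, while Sox2 in Tet2-/- lies at 1.30 with a wider bar.

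Whether the response to LIF withdrawal itself differed was tested as the change from D0 to D6 in a knockout minus that in WT. For Pou5f1 in Tet2-/- the difference was 1.22 ± 0.32 (SE) on the log2 scale, with an edgeR adjusted p of 0.0164, and it was called, as were 8.68% of the 15639 genes. For Sox2 in Tet2-/- it was 1.14 ± 0.52 (0.135). With the clone as a replicate block, which pairs the days within 11 clones, Sox2 was called as well, at 1.34 (edgeR adjusted p = 0.0314), as it was without WT_O4.2 at D6 (1.83, adjusted p = 0.00395). Over all fits with 1 library left out, the Sox2 difference ran from 0.89 to 1.83. The Pou5f1 call was lost without either Tet2-/- clone at D0 or without Tet2_KO_3.11 at D6, where the difference was 1.10 to 1.24 with adjusted p of 0.0541 to 0.0766.

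In TKO no member was called in response, and Nanog and Sall4 came nearest. The difference for Nanog was 1.10 ± 0.33 (SE) with an edgeR adjusted p of 0.0521, which missed the threshold, and it was called at 1.14 (0.0274) with the clone as a replicate block and at 1.09 (0.0179) by DESeq2. When single libraries were left out, this difference ran from 0.76 to 1.49. Sall4 differed by -0.69 ± 0.17 (edgeR adjusted p = 0.0231), short of 2-fold. Of all genes, 3.58% were called in TKO and 0 of the members, while 23.6% of genes and 2 members had an unadjusted p under 0.05.

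In DKO the difference for Sall4 was close in size, -0.71 ± 0.17, but its edgeR adjusted p was 0.372, in a comparison where 0% of genes were called. In Tet1-/-, where 0% were called too, Sall4 differed by -0.36 ± 0.15 (0.593) and Pou5f1 by 0.48 ± 0.28 (0.716). Each of these genotypes had 1 member at an unadjusted p under 0.05, Sall4, beside 8.02% of all genes in DKO and 7.67% in Tet1-/-, and 0 members called by edgeR or DESeq2.

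The Tet2-/- clones were also set against the other knockouts at D6. Against TKO, Pou5f1 was 1.03 ± 0.31 (SE) higher on the log2 scale with an edgeR adjusted p of 0.0475, called where 8.64% of genes were called, and the call was lost without either Tet2-/- clone (adjusted p = 0.128 and 0.23), without TKO_8.12 (0.265), with library totals (0.0542) or with the highest line per symbol (0.0568). Sall4 was 0.64 ± 0.14 higher (0.0202), short of 2-fold. Against Tet1-/- and DKO, with 6.36% and 9.5% of genes called, no member was called by edgeR or DESeq2.

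In those 2 comparisons Pou5f1 differed by 0.64 ± 0.27 (SE) and 0.75 ± 0.31 (edgeR adjusted p = 0.154 and 0.118), and Sox2 by 1.22 ± 0.46 and 1.38 ± 0.52 (0.11 and 0.0951). Sox2 was called in both in a fit over all 24 libraries, and against Tet1-/- also without Tet1_KO_2.4 (1.64, edgeR adjusted p = 0.0371). Members at an unadjusted p under 0.05 numbered 2 against Tet1-/- and 3 against DKO, the third being Sall4, beside 28.9% and 32.6% of all genes.

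The genes known as direct targets of Oct4 and Sox2 were examined as a list of 20. In WT 14 of them fell from D0 to D6 and 0 rose, with a median log2 fold change of -1.70 against 0.01 over all genes, and in Tet2-/- 5 fell, with a median of -0.51. Of all genes tested, 20.7% rose in WT and 12.7% in Tet2-/-, beside the shares that fell given above. At D6, 8 of the 20 were higher in Tet2-/- than in WT and 0 lower, with a median of 1.29 against -0.03, where 4.81% of all genes were called higher and 9.45% lower. Examples are Foxd3, a forkhead factor (8.64-fold higher, edgeR adjusted p = 0.0169), Lefty2, a Nodal inhibitor (log2 fold change 2.38 ± 0.34 SE, 0.0041), and Gdf3, a TGF-beta ligand (2.12 ± 0.55, 0.0188).

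Foxd3 stood at 47.9 to 69.8 CPM in WT and 57.6 to 60.0 CPM in Tet2-/- at D0, and at 3.31 to 9.55 and 45.0 to 55.0 CPM at D6. Fgf4, the FGF ligand whose enhancer holds a classical Oct4 and Sox2 site, stood at 211 to 213 CPM in WT at D0 and at 12.6 to 91.2 CPM at D6, against 134 CPM in both Tet2-/- clones. No target was called against WT at D6 in Tet1-/-, DKO or TKO, where the medians were 0.31, 0.49 and 0.60 and edgeR called 0% of all genes.

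Of 20 other pluripotency factors, 12 fell in WT from D0 to D6 (median -1.84) and 12 fell in Tet2-/- (median -1.36). In WT these included Gbx2, a LIF-responsive homeobox gene (-5.40 ± 0.32 SE), Nr0b1, the orphan receptor Dax1 that binds Oct4 (-4.13 ± 0.52), and Tcl1, a coactivator of Akt (-3.69 ± 0.35), each with an edgeR adjusted p of 1.67e-06 or less. At D6, 5 of the 20 were higher in Tet2-/- than in WT and 1, Dppa3, was lower (-2.83 ± 0.91). Gbx2 was at 0.835 to 2.71 CPM in WT and 14.0 and 15.5 CPM in Tet2-/- at D6, both far below its D0 levels of 48.4 to 87.8 CPM.

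Of 26 genes whose products bind the core proteins, mostly NuRD, SWI/SNF and other chromatin subunits, 2 rose and 3 fell in WT (median -0.37), that is, 7.69% and 11.5% of the list beside 20.7% and 13.3% of all genes. The 3 were Nr0b1, Tfcp2l1 (-3.11) and Esrrb (-2.93), themselves pluripotency factors, and the 2 were Arid3b (2.08) and Mta1 (1.60). In Tet2-/- against WT at D6, 1 was higher and 1 lower. Of 16 formative and primed genes, which mark the exit from the naive state, 11 rose and 2 fell in WT and 9 rose and 1 fell in Tet2-/-. Fgf5, the standard marker of that exit, was at 0.0808 to 0.216 CPM in WT at D0 and at 96.1 to 202 CPM at D6, and at 117 and 135 CPM in Tet2-/- at D6, within the WT range.

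Relatives of the members, which share their DNA-binding domains, moved in both directions. Of 9 POU genes tested, 1 rose in WT, Pou3f1 (Oct6, an epiblast and neural factor, 2.82 ± 0.31 SE), and 3 fell. Pou3f1 was at 55.1 to 74.4 CPM in WT at D6 and at 147 and 152 CPM in Tet2-/- (1.23 ± 0.37, edgeR adjusted p = 0.0316). Of 17 Sox genes tested, 7 rose and 3 fell in WT. The shares that rose and fell were 11.1% and 33.3% of the POU genes and 41.2% and 17.6% of the Sox genes. Over all genes they were 20.7% and 13.3%. Sox11, of neural progenitors, went from 9.46 to 11.5 CPM at D0 to 118 to 149 CPM at D6, and Sox17, of endoderm, from 0.123 to 0.302 CPM to 10.3 to 68.5 CPM, while both Tet2-/- clones stayed between 0.105 and 0.432 CPM for Sox17.

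Both neural Sox1 and Sox3 share the SoxB1 group with Sox2. Sox1 was at 7.29 and 9.07 CPM in Tet2-/- at D6 against 1.31 to 1.92 in WT (2.39 ± 0.63 SE, edgeR adjusted p = 0.0195), and Sox3 at 20.4 and 21.0 against 7.90 to 12.8 (1.09, adjusted p = 0.0585). Of the Sox genes tested in this comparison, 5.88% were higher, which is Sox1, and 23.5% were lower. The lower genes included Sox17, Sox21 (-3.81 ± 0.61, edgeR adjusted p = 0.00474) and Sox9 (-3.41 ± 0.92, 0.0211). Beside them stand 4.81% and 9.45% of all genes. Among the Sall genes, Sall2 and Sall3 rose in WT by 2.92 ± 0.21 and 1.78 ± 0.38, while Sall1 went from 185 to 228 CPM to 124 to 143 CPM (-0.67, edgeR adjusted p = 4.82e-05, short of 2-fold).

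Markers of other cell types were set beside the members and were summed over 8 genes per list. At D6 the mesoderm sum was 480, 180 and 692 CPM in WT_O4.1, WT_O4.2 and WT3_O4.13, and 21.7 and 11.4 CPM in the Tet2-/- clones. WT_O4.2 was lowest in mesoderm and highest in Pou5f1, Sox2 and Nanog among the WT clones. Among the Tet1-/- clones, Tet1_KO_2.4 had the lowest mesoderm sum, 134 CPM against 402 and 681, and the highest Pou5f1, Sox2 and Nanog. In TKO the mesoderm sum was 92.0 CPM in TKO_8.4 and 342 CPM in TKO_8.12, the clone with less Pou5f1 and more Nanog.

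In WT from D0 to D6, 8 of 8 mesoderm genes rose, as did 4 of 6 tested endoderm, 6 of 8 trophectoderm, 6 of 8 fibroblast and 2 of 6 tested neuroectoderm genes. In the same comparison 4 of 8 germ cell genes fell, as did 1 endoderm gene (Sox7, -2.84), 1 fibroblast gene (Thy1, -2.20) and 1 neuroectoderm gene (Sox1, -1.40). Over all genes tested, 20.7% rose and 13.3% fell. In Tet2-/- against WT at D6, 7 of 8 mesoderm, 4 of 6 endoderm, 6 of 8 trophectoderm and 3 of 8 fibroblast genes were lower, and 3 of 6 neuroectoderm genes were higher. Of the germ cell genes, 25.0% were higher (Nanos3 and Ddx4) and 12.5% lower (Dppa3). Over all genes tested, 4.81% were higher and 9.45% lower. The endoderm sum at D6 ran from 57.8 to 262 CPM in WT, 46.1 to 153 for Tet1-/-, 11.1 to 12.3 for Tet2-/-, 40.0 to 59.3 for DKO and 18.3 to 19.6 for TKO. The fibroblast sum ran from 101 to 381 CPM in WT and from 15.5 to 18.3 in Tet2-/-, and the trophectoderm sum from 235 to 558 and from 97.8 to 120 CPM.

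The neuroectoderm sum at D6 ran from 75.1 to 119 CPM in WT and from 79.8 to 87.7 in Tet2-/-, and the germ cell sum from 101 to 175 and from 126 to 136 CPM. At most 2 genes of any of these cell-type lists were at 0 in a D6 library, and Hand2 (mesoderm) and Elf5 (trophectoderm) were at 0 in both Tet2-/- clones. At D0 the mesoderm sum stayed between 3.84 and 14.2 CPM in all clones. The endoderm sum at D0 was 23.1 CPM in TKO_8.12, the clone lowest in Pou5f1 and Sox2, and 4.70 to 7.21 CPM in the other 11 clones. The neuroectoderm sum at D0 was 28.2 and 38.5 CPM in TKO_8.4 and TKO_8.12 and at most 23.3 CPM in the other 10. The part of these other cells in the levels of the core factors was not tested.

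The tables hold 2 lines for Pou5f1, 4 for Nanog, 1 for Sox2 and 3 for Sall4, for transcripts that overlap and share reads, and the values above come from the line listed first. The ratio between lines of a gene was compared within the 11 clones, a choice made after the values were seen. In Sall4 the third line amounted to 48.1% of the first at D0 and 52.9% at D6, a difference of 4.75 ± 2.45 percentage points (SD) in the same direction in 11 of 11 clones (exact sign-flip test, adjusted p over 4 ratios = 0.00195). The second line of Sall4 went from 69.0% to 72.1%, up in 10 of 11 clones (exact adjusted p = 0.0026).

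In Nanog the second line went from 87.7% to 86.1% of the first, a difference of -1.60 ± 0.89 percentage points (SD), lower in 11 of 11 clones (exact sign-flip test, adjusted p = 0.00195), where the unadjusted p of 0.000977 is the smallest that 11 clones can give. In Pou5f1 the first line went from 65.6% to 66.4% of the second, higher in 8 of 11 clones (exact p = 0.122). The lines are not tied to transcript names in the tables, and a difference between days in how evenly reads cover a transcript was not tested.

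**Figure D4:**
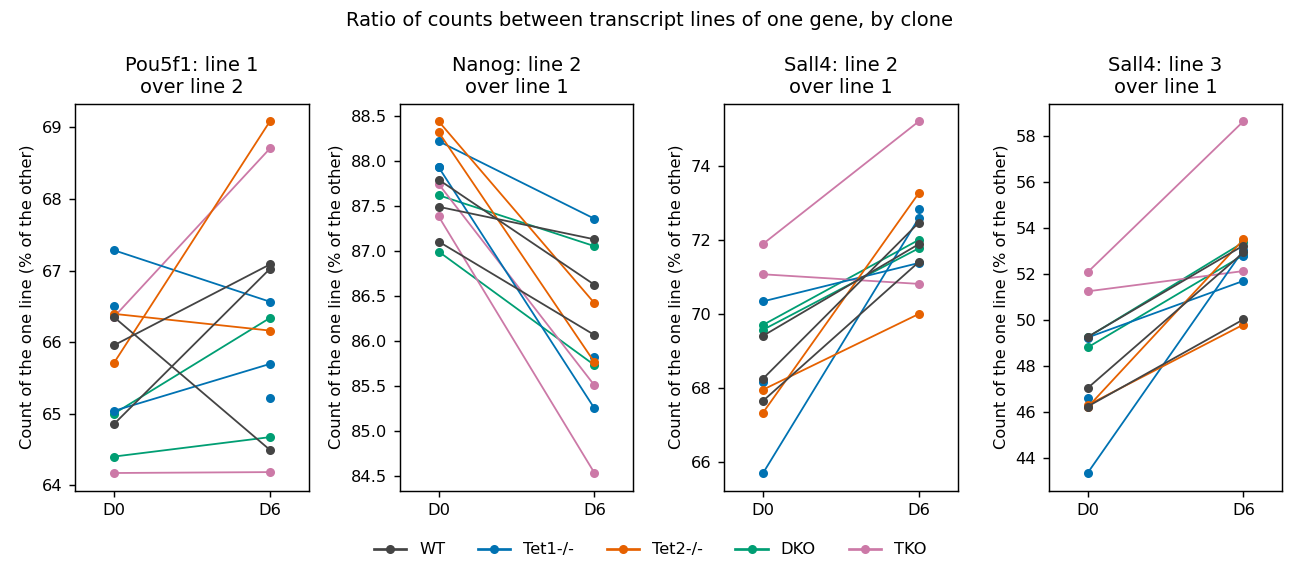
Count of a transcript line as a percentage of the count of another line of the same gene (y axes, which do not start at 0) at D0 and D6 (x axes), with 1 line per clone coloured by genotype, and points alone for the Tet1-/- clones sequenced at 1 day. For the third line of Sall4 all 11 clones run upward and for the second line of Nanog all 11 run downward.

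Over the 12 D6 libraries, which are of different clones but share genotypes, the members were only partly alike. Pearson's r of log2(CPM + 1) was 0.764 between Pou5f1 and Sox2, 0.556 between Nanog and Sox2, and 0.039 between Pou5f1 and Nanog. Sall4 stood at 0.225 with Pou5f1, -0.137 with Sox2 and -0.764 with Nanog. Over all 24 libraries, in which the 2 days set most of the spread, it was 0.924 between Pou5f1 and Sox2, 0.84 between Nanog and Sox2, and 0.747 between Pou5f1 and Nanog, and for Sall4 it was 0.319 with Pou5f1, 0.123 with Sox2 and -0.121 with Nanog.

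The genes most like each member over the 12 D6 libraries, picked as the 5 highest of all genes tested, all had an r of 0.953 or more. They were Ippk, Iars, Foxd3, Syk and Ppan for Pou5f1, and Mreg, Bdh2, 1810037I17Rik, Mkrn1 and Nr0b1 for Sox2. For Nanog they were Kpna2, Epha10, Trim13, 2610507B11Rik and Ranbp17, and for Sall4 Zbtb12, Cxxc5, Sox4, Six5 and Shc2. Over 24 libraries the nearest was Bax for Pou5f1 (r = 0.982), Zfp459 and then Fgf4 for Sox2 (both 0.981), Zbtb44 for Nanog (0.955) and Myc for Sall4 (0.827).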

How the data were processed

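The authors made libraries from polyadenylated RNA with a kit that keeps no strand, mapped paired-end reads with STAR 2.5.1 to mm9 and deposited counts, that is, whole numbers of reads per RefSeq transcript line named by gene symbol, without normalization or pooling. The counting program is not given consistently in the sources used here, and the treatment of multi-mapped reads is not stated there. Each table has 31928 lines for 22926 symbols, and the first line of a symbol was used (4911 symbols have more than 1). Lines for the ERCC spike-in numbered 0, so scaling by spike-in was not repeated here.

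Groups were taken from the labels, and all 24 libraries were used. In R 4.3.3, edgeR 4.0.16 kept genes by filterByExpr (minimum count 10), scaled by TMM and fitted quasi-likelihood models of the groups, without covariates, separately for D0 (14456 genes), D6 (15435) and all libraries (15639, for D6 against D0 and for differences between responses). Genes were called at a Benjamini-Hochberg adjusted p under 0.05 over all genes and a change over 2-fold. The scripts were checked on simulated counts. As a check for libraries deposited more than once, the variance within each group was set against that of counting, and was 8.92 to 97.6 times as large. The limit for a gene at 0 counts (3 counts) was 0.0805 to 0.163 CPM, for counting error only.

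The labels name the same clones at both days, where D6_DKO_512 was read as clone DKO_5.12. Over the 11 such clones, deviations from group means at D0 and D6 correlated at 0.0813 to 0.193. Deviations mirror each other in a group of 2 clones, so these are 8 separate values, of which 7 were over 0.1. The pairing rests on the clone names in the labels, and the clone was used as a replicate block in an alternative fit. Replicate numbers within a day do not mark a shared source, and pairs with the same number correlated at -0.0718 to 0.312 at D0 and -0.377 to 0.312 at D6.

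Other alternatives were RLE scaling, library totals, no filter on low counts, DESeq2 1.42.0, the highest line per symbol, no fold threshold, 1 fit over all libraries and each library left out. The ratios between lines were tested by exact sign flips over clones (SciPy 1.17.1). The members and the gene lists were chosen with earlier results of these data known. Genes named beside the members are, per list, up to 3 per direction with the largest change among those called in WT from D0 to D6 or in Tet2-/- against WT at D6, relatives of the members with at least 1 CPM, and the 5 genes most like each member.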

Additional observations from a re-analysis of the deposited data

Results flagged for a closer look

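The change of Pou5f1 from D0 to D6 differed between Tet2-/- and WT by 1.22 on the log2 scale in the test of the difference itself (edgeR's quasi-likelihood test, adjusted p = 0.0164). Both Tet2-/- clones kept a larger share of their D0 level than any of the 3 WT clones, 62.9% and 72.2% against 24.2% to 38.6%.

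The change of Sall4 from D0 to D6 differed between TKO and WT by -0.69 (edgeR adjusted p = 0.0231), less than 2-fold. Both TKO clones were lower at D6 than at D0 (82.4% and 65.5% of the D0 level), and all 3 WT clones were higher (109% to 131%).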

How the results depend on the processing

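Among 1160 refits of single members in single comparisons, 1074 kept the direction and the side of the threshold, 16 lost a call, 19 gained one, and 51 turned sign with no call on either side (initial log2 fold change at most 0.39). With library totals in place of TMM, Sall4 in Tet1-/- turned to 0.091 and Nanog in TKO to 0.12 from D0 to D6. Leaving out 1 library moved the latter from -0.39 to 0.23, and at D6 against WT moved Sall4 from -0.20 to 0.037 in Tet1-/- and -0.13 to 0.11 in Tet2-/-, and Pou5f1 in TKO from -0.42 to 0.56.

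With no fold threshold, members called from D0 to D6 numbered 4 in WT and DKO, 3 in Tet1-/- and TKO, and 1 in Tet2-/-, where 66.3%, 55.6%, 63.4%, 50.5% and 40% of all genes passed, with 1 in TKO against WT at D0 (Nanog, 8.61% of all genes), 1 in the TKO response (Sall4, 5.97%), and 2 in Tet2-/- against TKO (14.9%). Tet2-/- against WT at D6 had 2 without the filter on low counts or in 1 fit over all libraries, where Tet2-/- against Tet1-/- and against DKO had 1 each. The TKO response had 1, Nanog, with RLE, library totals, no filter or DESeq2. All genes called there numbered 567 with RLE, 533 with library totals and 809 with DESeq2, against 560 in the main fit. Tet2-/- against TKO had 0 with library totals or the highest line, and all genes called there numbered 1306 with library totals and 1334 in the main fit. The all-gene numbers without the filter, in 1 fit over all libraries and with the highest line are not given here, so those member counts lack a background. The cause was not tested.

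With the clone as a replicate block, members called in the response numbered 2 in Tet2-/- (Sox2 added) and 1 in TKO (Nanog). Calls among all genes rose as well, from 1357 to 1618 in Tet2-/- and from 560 to 783 in TKO. The block by replicate number, which marks no shared source, gave 2 for Tet2-/- against WT at D6 and 0 for Tet2-/- against TKO. All genes called went from 2201 to 2271 and from 1334 to 999 in these 2 comparisons. Neither block changed another call of a member.

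With 1 library left out, members called ran from 0 to 2 in TKO from D0 to D6, in Tet2-/- against WT at D6 and in the Tet2-/- response, and from 0 to 1 in TKO and in the mean of knockouts at D6, in the TKO response, and in Tet2-/- against Tet1-/- and TKO. The Pou5f1 line ratio, chosen after the data were seen, moved between 0.51 and 1.03 percentage points and passed the threshold only without WT3_O4.13. With 2 or 3 clones per genotype, each of the 3 member calls between genotypes was lost without 1 of its clones, while counting error was small at these levels.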
